A study of Mus musculus with 24 samples.

Results

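Expression of 10 autophagy genes (Sqstm1, Map1lc3b, Ulk1, Becn1, Atg5, Atg7, Atg12, Gabarapl1, Wipi1 and Tfeb) was followed in MIN6 cells, a mouse insulinoma cell line that keeps many features of pancreatic β cells. The genes were found by their symbols, and all 10 were present among the 17696 genes of the deposited count table. Bulk RNA-seq had been performed on 24 libraries in 6 groups of 4. The 3 stable lines were made by lentiviral transduction, puromycin selection and expansion of picked single clones: Scr carries a scrambled control sequence, ZIP a miRZip anti-miR-146a-5p vector, and OE a vector that overexpresses miR-146a-5p. Each line was sequenced untreated and after 24 h with a cytokine mix of IL-1β (5 ng/ml), IFNγ (100 ng/ml) and TNFα (10 ng/ml), and the treated groups are written Scr+Cy, ZIP+Cy and OE+Cy. By the paper's qRT-PCR of untreated cells, miR-146a-5p was raised in OE and unchanged in ZIP, each against Scr. The paper also reports that cytokines raised it in each line, by the largest factor in Scr. All 6 groups share the parental cells, the puromycin selection and the medium. Line, clone and integration differ together, and OE also has another vector backbone and reporter than Scr and ZIP, so these cannot be told apart. Replicates are numbered 1 to 4, and whether they come from separate cultures is not stated in the labels. The p values therefore measure only the spread between these libraries. In bulk libraries, fewer cells of a kind and less RNA per cell cannot be told apart.

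Macroautophagy encloses cytoplasm in a double membrane, the autophagosome, and delivers it to lysosomes. ULK1 kinase starts the process, the Beclin 1 lipid kinase complex marks the forming membrane with PI3P, WIPI proteins bind that lipid, and ATG7, ATG12 and ATG5 attach ATG8 proteins such as LC3B and GABARAPL1 to it. Receptors such as SQSTM1 (p62) tie ubiquitinated cargo to the ATG8 proteins and are themselves degraded with the cargo. TFEB is a transcription factor that drives autophagy and lysosome genes. In β cells, autophagy removes damaged mitochondria and old insulin granules. A transcript level does not measure autophagic flux, and none of the values here are of protein.

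The microRNA that the vectors were built to raise or block is shown first, because its seed decides which transcripts it can pair with directly. The mature sequence is from RefSeq (GRCm38.p6, chromosome 11, 43374435 to 43374456, minus strand), and the capitals mark seed bases 2 to 8.
mmu-miR-146a-5p: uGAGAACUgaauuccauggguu
The longest annotated 3′ UTR (GENCODE M21) of each of the 10 genes was searched for the complement of bases 2 to 8, and for the complement of bases 2 to 7 followed by A. No member held the first, which 11.1% of the 20987 genes with a 3′ UTR did. Either match was present in 18.04% of all genes and in 1 member, Sqstm1. The Sqstm1 match pairs with bases 2 to 7 and is followed by A, and it begins at base 1006 of a 1424-base 3′ UTR (chromosome 11, 50199767 to 50199795, minus strand). That stretch lies outside the span that the count table gives for Sqstm1 (50200152 to 50210820), so it belongs only to the longer GENCODE transcript. The capitals mark the match.
Sqstm1 site: actggagtcttGTTCTCAacagtcccttg
A match is a description of the letters and not evidence of pairing.

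The promoters of the 3 genes on which the results below turn most are shown because Sqstm1 and Gabarapl1 had their highest levels in OE+Cy and Wipi1 its highest in OE. They are the 250 bases before the RefSeq start (GRCm38.p6), at 50210821 to 50211070 on chromosome 11 (minus strand) for Sqstm1, 129532942 to 129533191 on chromosome 6 (plus strand) for Gabarapl1, and 109611390 to 109611639 on chromosome 11 (minus strand) for Wipi1. The capitals mark matches to TTCNNNGAA, the palindromic core bound by STAT factors that IFNγ activates.
Sqstm1 promoter: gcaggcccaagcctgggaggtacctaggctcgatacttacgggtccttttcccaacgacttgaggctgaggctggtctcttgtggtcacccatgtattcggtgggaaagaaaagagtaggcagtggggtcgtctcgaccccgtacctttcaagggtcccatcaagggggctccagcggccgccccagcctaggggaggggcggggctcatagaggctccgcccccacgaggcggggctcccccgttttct
Gabarapl1 promoter: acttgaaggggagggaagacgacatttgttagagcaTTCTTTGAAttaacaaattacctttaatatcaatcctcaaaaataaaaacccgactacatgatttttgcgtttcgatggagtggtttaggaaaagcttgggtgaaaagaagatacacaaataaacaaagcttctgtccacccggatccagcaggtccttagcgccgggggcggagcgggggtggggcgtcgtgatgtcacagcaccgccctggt
Wipi1 promoter: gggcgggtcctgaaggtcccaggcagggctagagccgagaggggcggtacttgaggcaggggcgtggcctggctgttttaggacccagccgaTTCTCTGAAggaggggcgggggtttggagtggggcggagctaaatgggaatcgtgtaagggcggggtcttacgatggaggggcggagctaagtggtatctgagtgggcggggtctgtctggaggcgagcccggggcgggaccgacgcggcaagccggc
Promoter sequences were at hand for 8 of the 10 genes (not for Becn1 and Atg12), in 10 entries since Tfeb has 3, and 5 motifs were searched on both strands. TTCNNNGAA was found in Gabarapl1 and Wipi1, compared with 7.02% of all 32851 promoters. CACGTG, the E-box inside the element that TFEB binds, was found in Atg5 and Atg7, compared with 6.02% of all promoters. The Atg7 window (chromosome 6, 114670846 to 114671095) lies inside the gene, whose span in the count table begins at 114643127. It is therefore not the sequence before that start. TGACNNNGC, the core of the antioxidant response element (10.2% of all promoters), TGACGTCA, the cyclic AMP response element (1.55%), and GGGACTTTC, an NF-κB motif (0.289%), were not in these windows of any member. No member held more than 1 of the 5 motifs. As with the seed, a motif match describes the letters and is not evidence of binding, which was not tested.

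The libraries held 26657792 to 37168232 reads assigned to genes (median 30701023). All 10 β cell markers (Ins1, Ins2, Iapp, Mafa, Pdx1 and 5 others) reached 1 CPM in some library. CPM are the reads of a gene scaled to the total of its library. Detection was not counted group by group. The summed level of the β cell list was 18756 to 25050 CPM in Scr, 28374 to 30905 in ZIP and 40112 to 43788 in OE. With cytokines it was 19595 to 21528 in Scr+Cy, 25617 to 28568 in ZIP+Cy and 25357 to 33004 in OE+Cy. Of 6 markers of alpha, delta and PP cells, 4 reached 1 CPM, and their sum went from 246 to 369 CPM in Scr to 48.7 to 57.8 CPM in OE and 13.6 to 36.9 CPM in OE+Cy. These lists moved with the line and the treatment, as several autophagy genes did, and their part in the results was not tested. None of the 6 acinar markers reached 1 CPM. All 6 fibroblast markers reached 1 CPM in some library, with sums of 58.7 CPM in Scr+Cy replicate 1, 54.0 in ZIP replicate 1 and 18.9 in Scr replicate 1, and at most 7.95 elsewhere. Leaving out those 3 libraries together, an alternative chosen after the data were seen, moved 4 member results across the threshold, and these are given beside their values. Of 6 leukocyte and 5 endothelial markers, 2 and 1 reached 1 CPM.

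The levels that follow are CPM with TMM scaling, which sets the reads of a gene against the effective size of its library. Reads for the members ranged from 131 (Tfeb) to 46495 (Sqstm1) in a single library. Different genes were set against each other only per kilobase of GENCODE M21 exon. On that scale Sqstm1 had the highest mean over the 24 libraries, at 254 CPM per kb. Gabarapl1 (43.8), Wipi1 (27.8), Becn1 (23.9), Atg5 (17.8) and Map1lc3b (13.9) followed. Ulk1 (9.08), Atg12 (8.54), Atg7 (3.84) and Tfeb (1.63) had the lowest values. Some spans in the count table are shorter than in GENCODE. That of Becn1 begins at 101288258 against 101285952, and that of Atg12 at 46732417 against 46730144. Values per kb of such genes may be understated, and the order below Sqstm1 is not firm. The range of the 6 group means, in log2 CPM, was widest for Sqstm1 (1.40) and Wipi1 (1.31), intermediate for Tfeb (0.76), Gabarapl1 (0.72), Atg7 (0.55) and Ulk1 (0.45), and narrow for Atg5 (0.30), Map1lc3b (0.27), Atg12 (0.25) and Becn1 (0.23). The plot of the 10 genes in every library shows these levels.

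**Figure D1:**
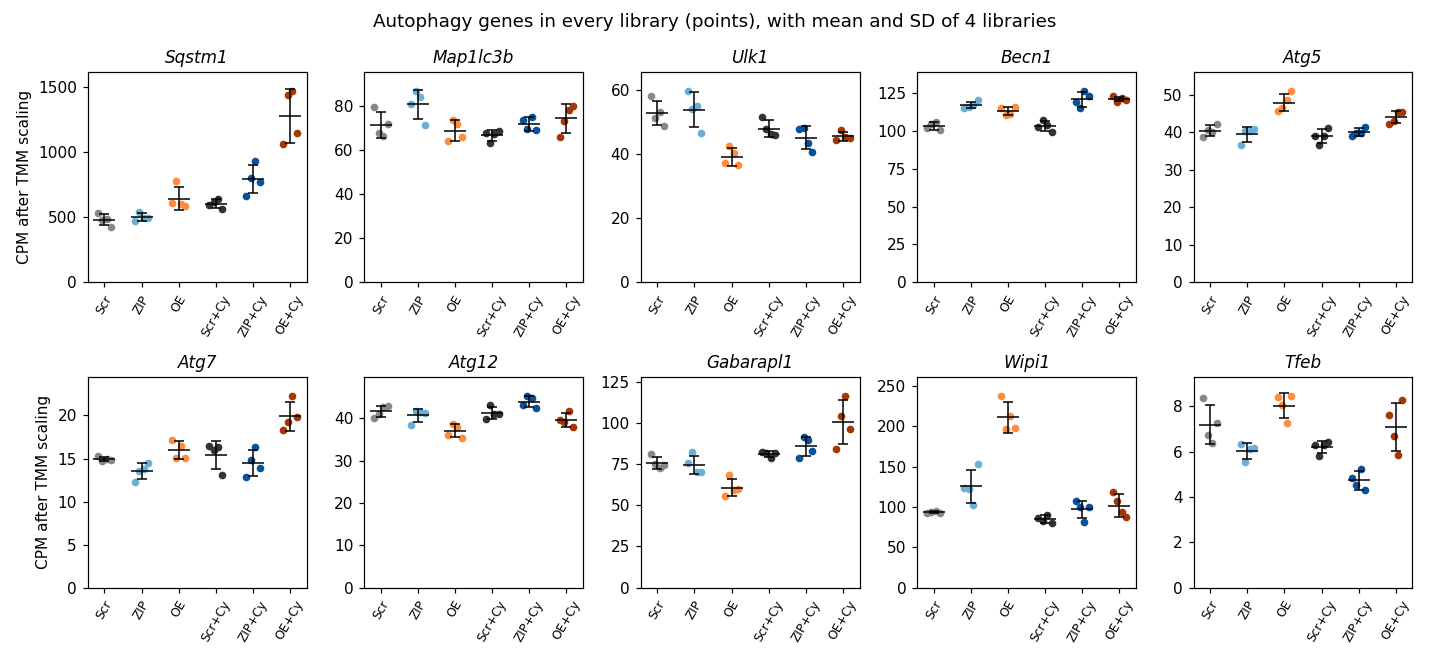
Each panel plots 1 gene, with CPM after TMM scaling on the y axis and the 6 groups on the x axis. Points are the 4 libraries of a group, and black bars are their mean and SD. Sqstm1 is highest in OE+Cy (1063 to 1468 CPM), Wipi1 in OE (196 to 237 CPM), and Gabarapl1 is lowest in OE (55.7 to 68.2 CPM) and highest in OE+Cy (84.5 to 116 CPM).

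The cargo receptor gene Sqstm1 (chromosome 11, 50200152 to 50210820, minus strand of mm10) was at 531, 479, 483 and 427 CPM in the 4 Scr libraries and at 474, 543, 497 and 497 CPM in ZIP. In OE it was at 606, 778, 602 and 589 CPM. With cytokines, the levels were 596, 619, 639 and 567 CPM in Scr+Cy and 666, 799, 929 and 770 CPM in ZIP+Cy. The OE+Cy libraries were at 1063, 1439, 1468 and 1143 CPM. The OE+Cy libraries were above all others, the ZIP+Cy libraries overlapped those of OE, and the Scr and ZIP libraries overlapped each other. The mean was 480 ± 42.3 CPM (SD, n = 4 here and for each mean that follows) in Scr, 503 ± 29.1 CPM in ZIP and 644 ± 89.6 CPM in OE, and with cytokines it was 605 ± 31.3, 791 ± 108 and 1278 ± 205 CPM in the same lines. In GENCODE M21, Sqstm1 shares 580 exon bases with Mrnip on the opposite strand, a gene at a mean of 8.50 CPM. How the counting used strand is not given in the sources used here.

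Of the ATG8 genes, Gabarapl1 (chromosome 6, 129533192 to 129542331, plus strand) was at 81.2, 74.9, 72.6 and 74.7 CPM in Scr, 75.5, 82.1, 70.3 and 70.3 CPM in ZIP, and 55.7, 68.2, 59.0 and 59.9 CPM in OE. With cytokines, it was at 82.5, 81.6, 78.8 and 81.6 CPM in Scr+Cy, 78.6, 91.6, 89.8 and 83.1 CPM in ZIP+Cy, and 84.5, 104, 116 and 96.5 CPM in OE+Cy. Every OE library was below every other library, and the OE+Cy libraries were above those of Scr, ZIP, OE and Scr+Cy and overlapped those of ZIP+Cy. Map1lc3b (chromosome 8, 121590438 to 121598760, plus strand), which encodes LC3B, ranged only from 63.2 to 86.7 CPM over the 24 libraries, and neighbours in the order of its group means overlapped in each case. The mean was highest in ZIP (80.6 ± 6.76 CPM) and lowest in Scr+Cy (66.7 ± 2.42 CPM). Map1lc3b shares 58 exon bases with Zcchc14 on the opposite strand, at a mean of 72.9 CPM, and Gabarapl1 shares 47 with 1700101I11Rik, at 0.142 CPM.

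Wipi1 (chromosome 11, 109573521 to 109611389, minus strand), a PI3P-binding protein of the forming membrane, was at 92.5, 94.3, 94.7 and 92.8 CPM in Scr. In ZIP it was at 123, 123, 103 and 153 CPM, and in OE at 237, 196, 213 and 198 CPM. In the treated groups it was at 86.9, 82.2, 90.4 and 80.5 CPM in Scr+Cy, 107, 99.6, 81.7 and 99.5 CPM in ZIP+Cy, and 119, 108, 94.0 and 87.0 CPM in OE+Cy. The OE libraries were above all others and the ZIP libraries above those of Scr, whereas the 3 treated groups overlapped. Ulk1 (chromosome 5, 110784489 to 110810081, minus strand), the initiating kinase, was lowest in OE, at 37.3, 42.5, 40.5 and 36.7 CPM, and was at 58.1, 51.2, 53.3 and 49.0 CPM in Scr. Its means in the other groups were 53.9 ± 5.46 CPM in ZIP, 48.0 ± 2.64 CPM in Scr+Cy, 45.1 ± 3.60 CPM in ZIP+Cy and, for OE+Cy, 45.7 ± 1.34 CPM. All neighbours in its order of means overlapped.

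Becn1 (chromosome 11, 101288258 to 101302286, minus strand), the Beclin 1 gene, fell into a lower and a higher set of groups with little spread. It was at 102, 105, 106 and 100.2 CPM in Scr and 102, 107, 104 and 98.8 CPM in Scr+Cy, and its means were 113 ± 2.93 CPM in OE, 117 ± 2.20 CPM in ZIP, 121 ± 5.03 CPM in ZIP+Cy and, for OE+Cy, 121 ± 1.58 CPM. All libraries of the ZIP and OE lines lay above those of the Scr line. Becn1 shares 1394 exon bases with Cntd1 on the opposite strand, at a mean of 2.75 CPM.

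Among the conjugation genes, Atg5 (chromosome 10, 44268339 to 44364299, plus strand) had its highest mean in OE (48.0 ± 2.35 CPM) and its lowest in Scr+Cy (39.0 ± 1.89 CPM), and the OE libraries lay above all others. Atg7 (chromosome 6, 114643127 to 114860599, plus strand), the E1-like enzyme, was at 18.3, 19.2, 22.2 and 19.9 CPM in OE+Cy, above all other libraries, and its other means lay between 13.5 ± 0.936 CPM in ZIP and 16.0 ± 1.06 CPM in OE. Atg12 (chromosome 18, 46732417 to 46741579, minus strand) ranged from 35.4 to 45.2 CPM, with its lowest mean in OE (37.0 ± 1.56 CPM) and its highest in ZIP+Cy (43.9 ± 1.27 CPM). Tfeb (chromosome 17, 47737037 to 47792416, plus strand) was the member with the fewest reads. It was at 8.36, 6.76, 6.38 and 7.28 CPM in Scr, and at 4.85, 4.53, 5.25 and 4.32 CPM in ZIP+Cy, where every library was below all others. The remaining Tfeb means were 6.03 ± 0.340 CPM in ZIP, 8.04 ± 0.552 CPM in OE, 6.20 ± 0.264 CPM in Scr+Cy and 7.11 ± 1.06 CPM in OE+Cy.

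ZIP, the line with the anti-miR-146a-5p vector, was compared with Scr in an edgeR quasi-likelihood fit over all 24 libraries. A gene passed at a Benjamini-Hochberg adjusted p under 0.05 over all genes. Of the 10 members, 2 rose and none fell, compared with 13.5% of all genes higher and 14.8% lower. Here and below, all genes are the 17696 listed, of which 12670 averaged 1 CPM or more. Genes with few reads pass less easily, and shares among well-read genes alone were not computed. At an unadjusted p under 0.05, 1 member was lower, and DESeq2 called none lower. Wipi1 rose by 0.42 ± 0.10 (log2 fold change ± SE, adjusted p = 0.00256) and Becn1 by 0.18 ± 0.04 (adjusted p = 0.000908). The study's own rule asks for an unadjusted p under 0.05 together with a change of 1.5-fold or more, and none of the members met it, beside 14.9% of all genes. Without ZIP replicate 4, the library with the highest Wipi1 level, Wipi1 was higher by 0.31 (adjusted p = 0.0177). Map1lc3b differed by 0.18 (95% interval 0.03 to 0.32, adjusted p = 0.0576) and passed with DESeq2 (0.19, adjusted p = 0.0345) and with the 3 libraries rich in fibroblast markers left out (0.23, adjusted p = 0.0352). Tfeb differed by −0.25 (−0.47 to −0.04, adjusted p = 0.0705) and passed with the replicate number as a block, which pairs these libraries (−0.25, adjusted p = 0.0440). With total reads in place of TMM, Tfeb also passed (−0.32, adjusted p = 0.0275), so that 2 members were higher and 1 lower. The intervals of the other 6 members reached from −0.32 for Atg7 to 0.29 for Sqstm1 and included 0.

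When OE was compared with Scr, 4 members rose and 3 fell, and 24.5% of all genes were higher and 25.6% lower in the same test. Wipi1 rose most, by 1.17 ± 0.10 on the log2 scale (adjusted p = 8.62e-10), a fold change of 2.26. It was the only member to reach the study's thresholds, as 25.7% of all genes did. Sqstm1 rose by 0.42 ± 0.11 (adjusted p = 0.00188), Atg5 by 0.25 ± 0.05 (adjusted p = 0.000205) and Becn1 by 0.13 ± 0.04 (adjusted p = 0.00669). Ulk1 fell by 0.43 (SE 0.07, adjusted p = 2.11e-05), Gabarapl1 by 0.32 (SE 0.08, adjusted p = 0.00139) and Atg12 by 0.17 (SE 0.05, adjusted p = 0.00378). Sqstm1 in OE replicate 2 was far above the other OE libraries, and without it the difference was 0.33 (adjusted p = 0.0138). Atg7, Map1lc3b and Tfeb did not pass, with log2 fold changes of 0.09, −0.05 and 0.16. The median over the 10 members was 0.11, beside 0.00 over all genes.

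**Figure D2:**
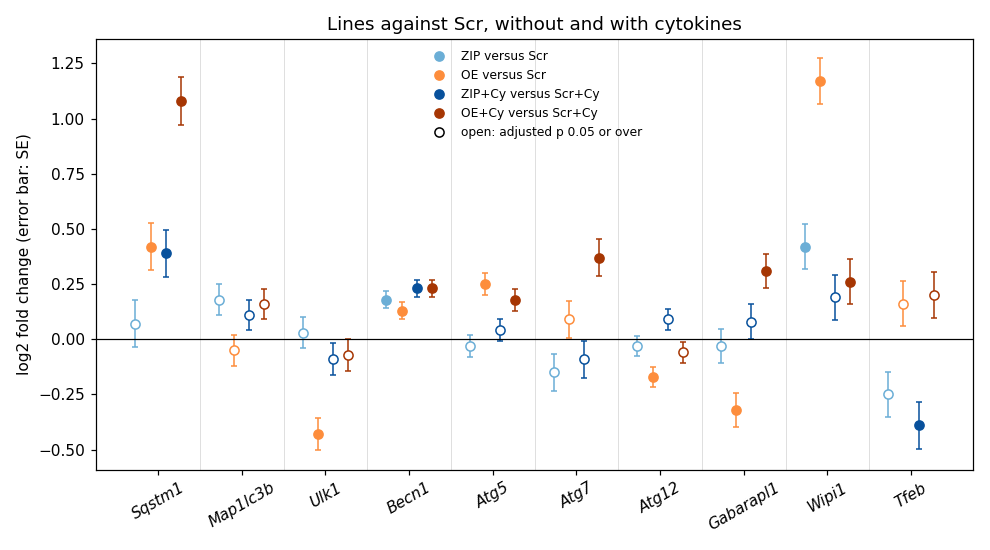
Log2 fold changes (y axis) of the 10 genes (x axis) in ZIP and OE against Scr, without cytokines (light colours) and with them (dark colours), 4 libraries a group. Error bars are standard errors and open circles did not pass. The largest differences are those of Wipi1 in untreated OE (1.17) and of Sqstm1 in OE+Cy (1.08).

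The response to proinflammatory cytokines was then compared within each line. In Scr cells, 1 member rose and none fell, beside 10.5% of all genes higher and 7.33% lower. At an unadjusted p under 0.05, 1 member was lower, Tfeb (−0.21, adjusted p = 0.168), and DESeq2 called none lower. Sqstm1 rose by 0.33 ± 0.11 (adjusted p = 0.0305), a fold change of 1.26, and the 4 Scr+Cy libraries lay above the 4 Scr libraries. This call was lost when any of Scr replicates 2, 3 or 4 or Scr+Cy replicates 2 or 3 was left out, with log2 fold changes of 0.28 to 0.35 and adjusted p from 0.0538 to 0.105. No member reached the study's thresholds, as 10.6% of all genes did. The 95% intervals of the members that did not pass lay between −0.43 (Tfeb) and 0.26 (Gabarapl1).

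In ZIP cells, cytokines changed 4 members, with 1 higher and 3 lower, beside 13.6% of all genes higher and 12.8% lower. Sqstm1 rose by 0.65 ± 0.11 (adjusted p = 5.03e-05). It was the member that met the study's thresholds, which 12.5% of all genes met. Wipi1 fell by 0.37 (SE 0.10, adjusted p = 0.00841), Tfeb by 0.35 (SE 0.11, adjusted p = 0.0171) and Ulk1 by 0.26 (SE 0.07, adjusted p = 0.00976). Of these, the groups overlapped for Wipi1 and Ulk1. Tfeb did not pass without ZIP+Cy replicate 4 (adjusted p = 0.0594), nor Ulk1 without ZIP replicate 1 (adjusted p = 0.0501). With the replicate number as a block, which pairs these libraries, 6 members passed: Gabarapl1 (0.20, adjusted p = 0.0349) and Atg12 (0.11, adjusted p = 0.0424) joined the 4.

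In OE cells, cytokines raised 5 members and lowered 2, beside 23.0% of all genes higher and 21.5% lower. Sqstm1 rose by 0.99 ± 0.11 (adjusted p = 5.84e-08), a fold change of 1.99, and Gabarapl1 by 0.73 ± 0.08 (adjusted p = 5.33e-08), a fold change of 1.65. Wipi1 fell by 1.05 (SE 0.10, adjusted p = 9.40e-09), to a mean of 102 ± 14.1 CPM, beside 93.6 ± 1.1 CPM in untreated Scr. These 3 genes met the study's thresholds, and 21.0% of all genes did. Atg7 rose by 0.32 ± 0.08 (adjusted p = 0.00254), Ulk1 by 0.22 ± 0.07 (adjusted p = 0.0163) and Becn1 by 0.10 ± 0.04 (adjusted p = 0.0447), and Atg5 fell by 0.12 (SE 0.05, adjusted p = 0.0476). The last calls lie near the threshold. Atg5 did not pass in 14 of the 24 fits that left out 1 library (adjusted p up to 0.169), Becn1 in 10 (up to 0.121) and Ulk1 without OE replicate 1, OE replicate 4 or OE+Cy replicate 2 (up to 0.0666). Becn1 also did not pass without the 3 libraries rich in fibroblast markers (adjusted p = 0.0637). In a fit of OE and OE+Cy alone, neither Becn1 (adjusted p = 0.1135) nor Atg5 (adjusted p = 0.109) passed. Map1lc3b, Atg12 and Tfeb did not pass, with log2 fold changes of 0.11, 0.10 and −0.18. With total reads in place of TMM, 7 members were higher and 1 lower, since Map1lc3b (0.17, adjusted p = 0.0495) and Atg12 (0.15, adjusted p = 0.00662) passed and Atg5 did not (−0.07, adjusted p = 0.335). With DESeq2 size factors, 5 were higher and 1 lower.

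**Figure D3:**
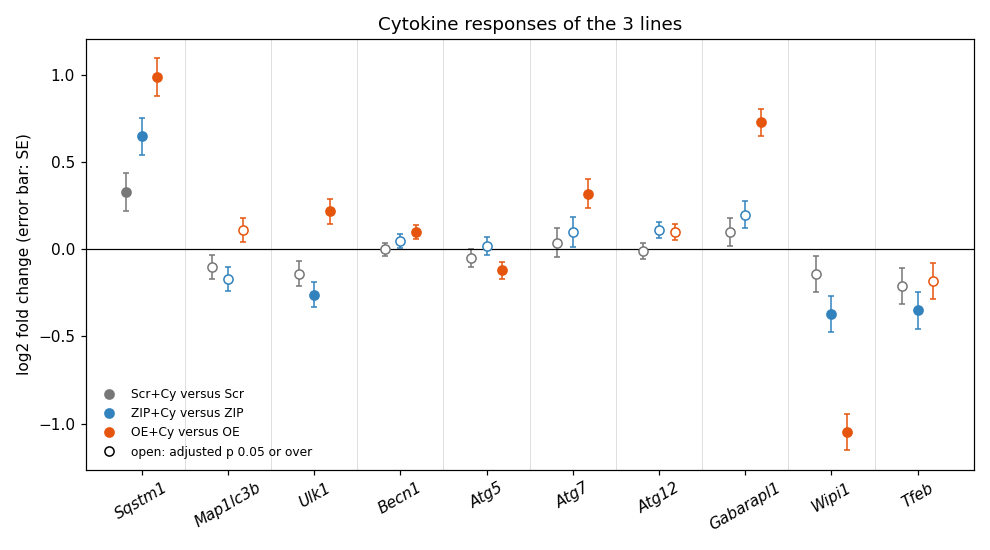
Log2 fold changes (y axis) of the 10 genes (x axis) after cytokine treatment in Scr, ZIP and OE cells, 4 libraries a group, with standard errors as bars. Open circles did not pass. Sqstm1 rose in all 3 lines (0.33, 0.65 and 0.99), and Wipi1 fell most in OE (−1.05).

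Whether the cytokine response depended on the line was tested as a difference of responses in the same fit. For OE against Scr, 3 members had a higher response and 1 a lower response in OE, beside 9.64% and 10.3% of all genes. The response of Sqstm1 was higher in OE by 0.66 ± 0.15 (adjusted p = 0.00318), that of Gabarapl1 by 0.63 ± 0.11 (adjusted p = 0.000289) and that of Ulk1 by 0.36 ± 0.10 (adjusted p = 0.0144). The response of Wipi1 was lower by 0.91 (SE 0.14, adjusted p = 0.000105). These calls were kept in each of the 24 fits that left out 1 library. With total reads in place of TMM, 7 members had a higher and 1 a lower response, as Map1lc3b, Becn1, Atg7 and Atg12 also passed (0.19 to 0.36, adjusted p from 0.0242 to 0.0345). Each of these values uses the same OE libraries as the comparison of OE with Scr, in which a high OE level counts upward in one and downward in the other. Side by side, Wipi1 differed by 1.17 between untreated OE and Scr and changed by −1.05 with cytokines in OE, Gabarapl1 by −0.32 and 0.73, Ulk1 by −0.43 and 0.22, and Sqstm1 by 0.42 and 0.99. For Sqstm1 both differences were upward, whereas for the other 3 genes they had opposite signs. For ZIP against Scr, no member had a response that differed by the same test, beside 0.0509% of all genes with a higher and 0.00565% with a lower response in ZIP. DESeq2 called none, and at an unadjusted p under 0.05 there was 1 member, Sqstm1 (0.32, 95% interval 0.01 to 0.63, adjusted p = 0.761). The other 9 intervals all included 0 and differed in width, from −0.07 to 0.16 for Becn1 to −0.53 to 0.07 for Wipi1.

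Under cytokines, OE+Cy was compared with Scr+Cy, and 6 members were higher and none lower, beside 26.0% of all genes higher and 27.4% lower. Neither an unadjusted p under 0.05 nor DESeq2 gave a lower member. Sqstm1 was higher by 1.08 ± 0.11 (adjusted p = 8.48e-09) and was the member that met the study's thresholds, as 28.5% of all genes did. Atg7 (0.37 ± 0.08, adjusted p = 0.000597), Gabarapl1 (0.31 ± 0.08, adjusted p = 0.00180), Becn1 (0.23 ± 0.04, adjusted p = 2.43e-05) and Atg5 (0.18 ± 0.05, adjusted p = 0.00454) were also higher. Wipi1 was higher by 0.26 ± 0.10 (adjusted p = 0.0362), a call that was lost without the 3 libraries rich in fibroblast markers (adjusted p = 0.0598) and when any of 5 single libraries was left out, namely Scr+Cy replicates 1, 2 and 4 and OE+Cy replicates 1 and 2 (adjusted p up to 0.158). The Wipi1 libraries of the groups overlapped. Map1lc3b differed by 0.16 (adjusted p = 0.0639) and passed with DESeq2 (0.18, adjusted p = 0.0258). In ZIP+Cy against Scr+Cy, 2 members were higher and 1 lower, beside 12.9% and 15.1% of all genes. Sqstm1 (0.39 ± 0.11, adjusted p = 0.00804) and Becn1 (0.23 ± 0.04, adjusted p = 7.01e-05) were higher, and Tfeb was lower by 0.39 (SE 0.11, adjusted p = 0.00750). No member met the study's thresholds, which 15.8% of all genes did.

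The study also set the treated lines against untreated Scr, which joins the effects of line and cytokines. In OE+Cy against Scr, 5 members were higher and 1 lower, beside 30.4% and 29.1% of all genes, and 1 member met the study's thresholds, beside 34.2% of all genes. Sqstm1 was higher by 1.41 ± 0.11 (adjusted p = 5.13e-11), a fold change of 2.66, followed by Atg7 (0.41), Gabarapl1 (0.40), Becn1 (0.23) and Atg5 (0.12), and Ulk1 was lower (−0.21). The Atg5 libraries of the groups overlapped, and the call of Atg5 (adjusted p = 0.0371) was lost without the 3 libraries rich in fibroblast markers (adjusted p = 0.102) and without Scr replicates 1 or 2 or OE+Cy replicates 3 or 4, and that of Ulk1 (adjusted p = 0.0137) without Scr replicate 1 (adjusted p = 0.0647). In ZIP+Cy against Scr, 2 members were higher and 2 lower, beside 20.4% and 20.4% of all genes, and 2 met the study's thresholds, beside 21.7% of all genes. Sqstm1 was higher by 0.72 ± 0.11 (adjusted p = 5.90e-06) and Becn1 by 0.23 ± 0.04 (adjusted p = 3.87e-05). Tfeb was lower by 0.60 (SE 0.11, adjusted p = 5.08e-05), a fold change of 0.658, and Ulk1 by 0.23 (SE 0.07, adjusted p = 0.0126), the latter not without Scr replicate 1 or ZIP+Cy replicate 4 (adjusted p up to 0.0596).

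How the members varied together was described from log2 CPM after the group means had been removed, over the 24 libraries and 45 pairs of genes. The correlations ranged from −0.65 to 0.79 with a median of 0.00. The highest was that of Sqstm1 with Gabarapl1 (r = 0.79), followed by Map1lc3b with Gabarapl1 (0.60) and Map1lc3b with Ulk1 (0.52). The lowest were Map1lc3b with Wipi1 (−0.65), Ulk1 with Atg5 (−0.58) and Atg12 with Tfeb (−0.57). The points share libraries, depth and scaling, so these values are descriptions. Across all libraries, the gene most like Sqstm1 among 12670 genes with a mean of at least 1 CPM was Slc7a11 (r = 0.954), a cystine transporter subunit with a mean of 7.61 CPM in Scr and 25.7 CPM in OE+Cy. Rasal1 (0.952) and Tgif1 (0.948) followed, with means of 10.7 and 47.0 CPM in OE+Cy and of 0.158 and 7.94 CPM in Scr. The genes most like Wipi1 were Dusp6 (0.963), an ERK phosphatase with means of 15.3 CPM in Scr, 63.7 CPM in OE and 17.5 CPM in OE+Cy, Pi4k2b (0.955), a phosphatidylinositol kinase, and Rwdd4a (0.947). Those most like Tfeb were Tmem107 (0.892), Mdga1 (0.888) and Serf1 (0.884).

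**Figure D4:**
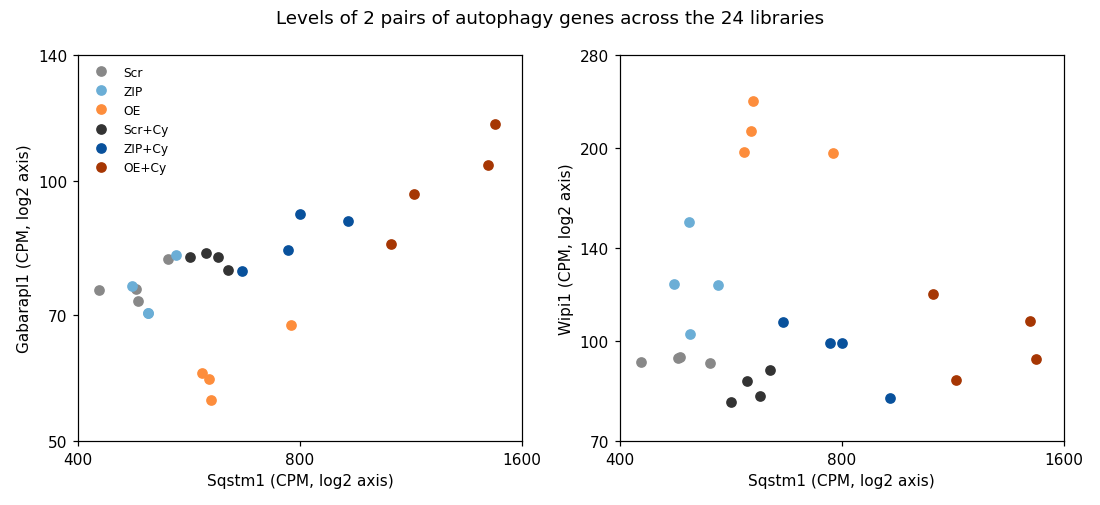
Each point is 1 of the 24 libraries, coloured by group, with Sqstm1 on the x axis and Gabarapl1 (left) or Wipi1 (right) on the y axis, in CPM on log2 axes. In the left panel the OE libraries lie below the others, and libraries within a group that are higher in Sqstm1 tend to be higher in Gabarapl1 (r = 0.79 with group means removed). In the right panel the OE libraries stand above all others in Wipi1.

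The other genes of the pathway were followed as 106 measured genes in 9 lists. The shares of all genes given beside them include genes with few reads, as only 12670 of the 17696 averaged 1 CPM or more. The part of read depth in any gap to those shares was not tested. The lists were chosen with earlier results of these data known, so a gap to those shares is a description only. In ZIP against Scr, 23 of the 106 rose (21.7%, beside 13.5% of all genes) and 10 fell (9.43%, beside 14.8%), with a median log2 fold change of 0.06. In OE against Scr, 22 rose (20.8%, beside 24.5%) and 49 fell (46.2%, beside 25.6%), with a median of −0.13. After cytokines, 10 rose (9.43%, beside 10.5%) and 16 fell (15.1%, beside 7.33%) in Scr, with a median of −0.05. In ZIP, 14 rose (13.2%, beside 13.6%) and 19 fell (17.9%, beside 12.8%), with a median of −0.05. In OE, 46 rose (43.4%, beside 23.0%) and 15 fell (14.2%, beside 21.5%), with a median of 0.13. Over all genes, the medians of these comparisons were between −0.01 and 0.02. The response to cytokines was higher in OE than in Scr for 35 of the 106 (33.0%, beside 9.64% of all genes) and lower for 6 (5.66%, beside 10.3%). These responses use the same OE and Scr libraries as the comparison of OE with Scr, in which 49 fell. A low OE level counts downward there and upward here. For ZIP against Scr, no response passed by edgeR or DESeq2, and 5 did at an unadjusted p under 0.05.

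**Figure D5:**
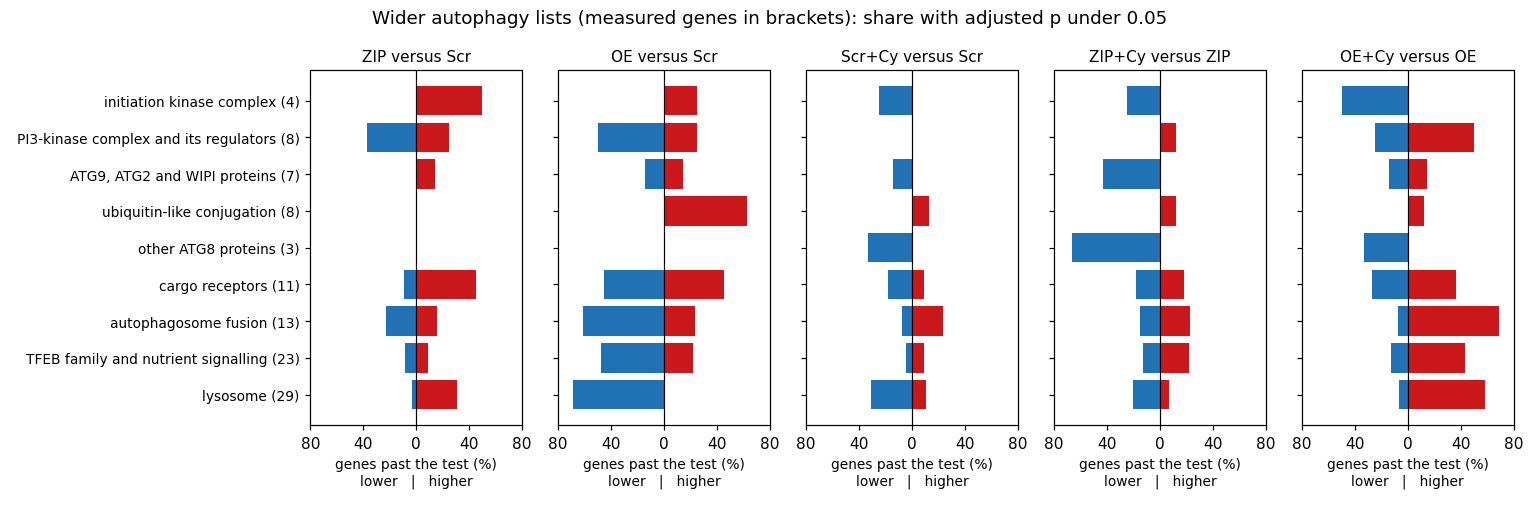
Bars give, for each of 9 lists (rows, with measured genes in brackets) and 5 comparisons (panels), the percent of genes that passed as higher (red, to the right) or lower (blue, to the left). In OE against Scr, 20 of 29 lysosome genes are lower and 5 of 8 conjugation genes higher, and in OE+Cy against OE 17 of 29 lysosome genes are higher.

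In OE against Scr, lysosome genes were the list with the most lower members, 20 of 29 (69.0%) with the other 9 not past the test and a median of −0.45. The list counts of this comparison are to be read beside 24.5% of all genes higher and 25.6% lower. Neu1, a sialidase, fell from 108 ± 9.38 to 44.9 ± 4.22 CPM (−1.27, adjusted p = 1.60e-13) and Lipa, the acid lipase, from 78.7 ± 8.98 to 34.6 ± 3.27 CPM (−1.19, adjusted p = 1.77e-11). Of the 13 autophagosome fusion genes, 8 fell and 3 rose. Tecpr1 (−0.78, adjusted p = 1.62e-13) and Vps39, a subunit of the HOPS tethering complex (−0.64, adjusted p = 9.82e-11), fell most, and Vamp8 (0.67, adjusted p = 1.30e-09) and Snap29 (0.42, adjusted p = 9.67e-07), both SNARE proteins, rose. Of 23 genes of the TFEB family and nutrient signalling, 5 rose and 11 fell. Tfe3, a relative of Tfeb, rose from 39.5 ± 1.91 to 54.6 ± 1.48 CPM (0.47, adjusted p = 1.85e-07) and Ddit4, an mTORC1 inhibitor, by 0.90 (adjusted p = 0.0189), while Sesn1 (−0.88, adjusted p = 5.19e-11) and Prkaa2, a catalytic AMPK subunit at 2.42 ± 0.231 CPM in Scr (−2.28, adjusted p = 8.17e-06), fell. The call of Ddit4 was lost in 2 of the 31 alternative settings, which include each library left out.

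Of the cargo receptors in OE, 5 of 11 rose and 5 fell. Retreg1, an ER-phagy receptor, rose from 17.0 ± 1.03 to 35.3 ± 1.77 CPM (1.06, adjusted p = 1.73e-10) and Ncoa4, the ferritin receptor, by 0.50 (adjusted p = 8.07e-09), whereas Calcoco1 (−0.76, adjusted p = 7.53e-05) and Optn, the optineurin gene (−0.60, adjusted p = 1.02e-06), fell. Conjugation genes rose in 5 of 8, led by the E2-like enzyme Atg3 (0.50, adjusted p = 5.30e-07) and the protease Atg4a (0.32, adjusted p = 0.00317), and the other 3 did not pass. In the PI3-kinase list, 2 rose and 4 fell of 8, with Nrbf2 (0.36, adjusted p = 0.000499) and Vmp1 (0.18, adjusted p = 0.0461) higher and Pik3c3, the lipid kinase itself (−0.52, adjusted p = 1.39e-08), and Uvrag (−0.41, adjusted p = 2.25e-06) lower. Atg101 rose among the 4 initiation genes (0.31, adjusted p = 0.000617), and of 7 ATG9, ATG2 and WIPI genes Wipi2 rose (0.14, adjusted p = 0.0144) and Atg9a fell (−0.18, adjusted p = 0.0131). The calls of Vmp1, Atg9a and Wipi2 were lost in 9, 3 and 2 of the 31 settings. None of the 3 other ATG8 genes passed by edgeR or DESeq2, and 1 did at an unadjusted p under 0.05.

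In ZIP against Scr, where 13.5% of all genes were higher and 14.8% lower, 9 of 29 lysosome genes rose and 1 fell, with a median of 0.11. Ctsa rose from 271 ± 27.6 to 422 ± 16.5 CPM (0.64, adjusted p = 1.01e-06), and Lipa fell from 78.7 ± 8.98 to 40.6 ± 3.87 CPM (−0.95, adjusted p = 2.70e-09). Cargo receptors rose in 5 of 11 and fell in 1, with Tex264, an ER-phagy receptor (0.87, adjusted p = 4.16e-08), and Calcoco1 (0.43, adjusted p = 0.0203) higher and Optn lower (−0.26, adjusted p = 0.0144). Of the PI3-kinase list, 2 rose and 3 fell of 8. Pik3r4, the regulatory subunit of that kinase, rose from 32.3 ± 1.59 to 55.1 ± 1.17 CPM (0.77, adjusted p = 7.91e-11) and Vmp1 by 0.30 (adjusted p = 0.00301), while Pik3c3 (−0.39, adjusted p = 3.22e-06) and Uvrag (−0.19, adjusted p = 0.0152) fell. Of the fusion genes, 2 rose and 3 fell of 13, with Stx17 (0.26, adjusted p = 0.0147) and Vps41 (0.15, adjusted p = 0.0214) higher and Snap29 (−0.64, adjusted p = 5.39e-09) and Vamp8 (−0.28, adjusted p = 0.00103) lower. Among the genes named in both comparisons, Snap29 and Vamp8 were thus lower in ZIP and higher in OE than in the same Scr libraries. Calcoco1 was higher in ZIP and lower in OE. Lipa, Pik3c3, Uvrag, Optn and Prkaa2 were lower in both lines, and Vmp1 and Wipi2 were higher in both. The call of Calcoco1 was lost in 5 of the 31 settings, that of Vps41 in 4, that of Optn in 3 and those of Stx17 and Uvrag in 2 each.

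Of the nutrient signalling genes in ZIP, 2 rose and 2 fell of 23. Sesn3 (0.47, adjusted p = 0.000709) and Deptor (0.39, adjusted p = 0.00109) rose, and Prkaa2 (−2.18, adjusted p = 4.04e-05) and Rptor (−0.13, adjusted p = 0.0364) fell. Ulk2 (0.17, adjusted p = 0.0367) and Atg13 (0.15, adjusted p = 0.0325) rose among the 4 initiation genes, and Wipi2 (0.25, adjusted p = 0.000176) rose among the 7 ATG9, ATG2 and WIPI genes. The calls of Rptor, Ulk2 and Atg13 were lost in 12, 8 and 7 of the 31 settings. None of the 8 conjugation genes or the 3 other ATG8 genes passed by edgeR or DESeq2, or reached an unadjusted p under 0.05.

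With cytokines in OE cells, where 23.0% of all genes were higher and 21.5% lower, 17 of 29 lysosome genes rose and 2 fell, with a median of 0.21. This rise began from the low OE levels. In OE+Cy against untreated Scr, 4 of the 29 were higher and 17 lower, beside 30.4% and 29.1% of all genes. Against Scr+Cy, 7 were higher and 14 lower, beside 26.0% and 27.4% of all genes. Lamp2 rose from 267 ± 7.87 to 457 ± 53.5 CPM (0.78, adjusted p = 2.22e-09) and Scarb2, the receptor that brings glucocerebrosidase to lysosomes, by 0.63 (adjusted p = 1.67e-09), while the proton pump genes Atp6ap1 (−0.20, adjusted p = 0.00271) and Atp6v0d1 (−0.18, adjusted p = 0.00122) fell. Of the fusion genes, 9 rose and 1 fell of 13. Rab7, the late endosome GTPase, rose from 359 ± 12.6 to 636 ± 65.8 CPM (0.82, adjusted p = 6.03e-11) and Stx17 by 0.59 (adjusted p = 1.60e-06), and Tecpr1 fell (−0.28, adjusted p = 9.17e-06). Nutrient signalling genes rose in 10 and fell in 3 of 23, with Sesn2 (0.89, adjusted p = 5.79e-06) and Tsc1 (0.57, adjusted p = 1.69e-06) higher and the GTPases Rraga (−0.46, adjusted p = 3.53e-07) and Rheb (−0.30, adjusted p = 0.000558) lower. Cargo receptors rose in 4 and fell in 3 of 11. Optn rose from 21.9 ± 1.28 to 42.1 ± 5.92 CPM (0.94, adjusted p = 1.03e-09) and Calcoco1 from 13.3 ± 1.22 to 25.0 ± 5.78 CPM (0.92, adjusted p = 9.50e-06), and Ccpg1 (−0.61, adjusted p = 3.32e-08) and Ncoa4 (−0.50, adjusted p = 1.27e-08) fell.

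Of the PI3-kinase list in OE+Cy against OE, 4 rose and 2 fell of 8, with Atg14 (0.64, adjusted p = 7.74e-06) and Ambra1 (0.26, adjusted p = 2.67e-05) higher and Nrbf2 (−0.30, adjusted p = 0.00260) and Vmp1 (−0.19, adjusted p = 0.0373) lower. Both Ulk2 (−0.28, adjusted p = 0.000675) and Atg13 (−0.30, adjusted p = 4.04e-05) fell among the 4 initiation genes. Atg2a rose (0.30, adjusted p = 0.00278) and Wdr45b fell (−0.13, adjusted p = 0.0432) among 7 ATG9, ATG2 and WIPI genes, Atg16l2 rose among 8 conjugation genes (0.50, adjusted p = 7.78e-05), and Gabarapl2 fell among the 3 other ATG8 genes (−0.23, adjusted p = 1.29e-05). The calls of Wdr45b and Vmp1 were lost in 9 and 7 of the 31 settings.

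In Scr cells, cytokines raised 3 (10.3%) and lowered 9 (31.0%) of 29 lysosome genes, beside 10.5% of all genes higher and 7.33% lower. Scarb2 rose from 455 ± 23.1 to 689 ± 49.9 CPM (0.60, adjusted p = 8.38e-09) and Lamp2 by 0.40 (adjusted p = 0.000140), and Ctsa (−0.36, adjusted p = 0.00188) and Neu1 (−0.30, adjusted p = 0.00209) fell. Of the 23 nutrient signalling genes, 2 rose and 1 fell. Tfe3 rose from 39.5 ± 1.91 to 55.1 ± 3.81 CPM (0.48, adjusted p = 5.13e-07) and Prkaa1, the other catalytic AMPK subunit, by 0.21 (adjusted p = 0.0104), and Mtor fell (−0.19, adjusted p = 0.0303). Rab7 (0.34, adjusted p = 0.000167) and Vamp8 (0.24, adjusted p = 0.00539) were among 3 of 13 fusion genes that rose, and Tecpr1 (−0.17, adjusted p = 0.00456) fell. Atg16l2 rose among 8 conjugation genes (0.46, adjusted p = 0.000633) and Tax1bp1 among 11 cargo receptors (0.21, adjusted p = 0.0133), of which Retreg1 (−0.31, adjusted p = 0.0124) and Ccpg1 (−0.26, adjusted p = 0.00423) fell. Ulk2 (−0.27, adjusted p = 0.00255), Atg2b (−0.20, adjusted p = 0.0228) and Map1lc3a (−0.33, adjusted p = 0.0491) were the genes that fell in their lists. The call of Map1lc3a was lost in 12 of the 31 settings, that of Mtor in 7, that of Atg2b in 4, that of Retreg1 in 2 and those of Prkaa1 and Tax1bp1 in 1 each. None of the 8 genes of the PI3-kinase list passed by edgeR, 1 did by DESeq2 and 2 did at an unadjusted p under 0.05.

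In ZIP cells, where cytokines gave 13.6% of all genes higher and 12.8% lower, 2 of 29 lysosome genes rose and 6 fell, with Scarb2 (0.60, adjusted p = 6.70e-09) and Lamp2 (0.34, adjusted p = 0.000648) higher and Ctsa (−0.54, adjusted p = 1.51e-05) and Asah1 (−0.36, adjusted p = 0.000263) lower. Of the nutrient signalling genes, 5 rose and 3 fell of 23. Mitf (0.59, adjusted p = 0.00854) and Tfe3 (0.54, adjusted p = 6.12e-08), both of the family of Tfeb, rose, whereas Tfeb itself fell. Flcn (−0.35, adjusted p = 0.0294) and Sesn3 (−0.35, adjusted p = 0.0103) fell. Of the fusion genes, 3 rose and 2 fell of 13, with Rab7 (0.36, adjusted p = 6.55e-05) and Vamp8 (0.33, adjusted p = 0.000234) higher and Vps39 (−0.17, adjusted p = 0.0107) and Tecpr1 (−0.16, adjusted p = 0.00579) lower. Cargo receptors rose in 2 and fell in 2 of 11, namely Optn (0.53, adjusted p = 1.94e-05), Tax1bp1 (0.20, adjusted p = 0.0149), Retreg1 (−0.54, adjusted p = 3.49e-05) and Ccpg1 (−0.36, adjusted p = 0.000133). Uvrag (0.22, adjusted p = 0.00562) and Atg16l2 (0.52, adjusted p = 0.000150) rose in their lists of 8. Atg9b (−1.26, adjusted p = 0.000970) and Atg2b (−0.29, adjusted p = 0.000883) were among 3 of 7 that fell, Map1lc3a (−0.55, adjusted p = 0.000909) and Gabarapl2 (−0.13, adjusted p = 0.0110) fell among 3 other ATG8 genes, and Ulk2 (−0.20, adjusted p = 0.0197) among 4 initiation genes. The call of Flcn was lost in 6 of the 31 settings, that of Ulk2 in 5, that of Sesn3 in 3 and those of Gabarapl2, Tax1bp1, Tecpr1 and Vps39 in 1 each.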

How the data were processed

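Total RNA of MIN6 stable lines was sequenced as bulk poly(A) libraries (24 libraries, 6 groups of 4, grouped from the labels). Per the submitters' processing notes, reads were checked with FastQC, aligned to mm10 with STAR 2.7.8a and quantified in Partek 11.0.24.0204, and the study's methods name other versions of both tools. Genes under 10 reads in sum had been removed by the authors, and the values deposited are estimated counts that were not normalized, of which 30.3% were not whole. The deposited normalized table was not used. Estimated counts were rounded, and depth was 26657792 to 37168232 assigned reads per library.

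All 17696 genes entered a single edgeR 4.0.16 fit (R 4.3.3) of 6 group means with TMM scaling and no filter, with quasi-likelihood tests and Benjamini-Hochberg adjustment over all genes of a comparison (11 comparisons). The standard error is the log2 fold change divided by the square root of F, and 95% intervals use the degrees of freedom of the fit. The members and lists were chosen with earlier results of these data known. All 10 members are named. From 9 wider lists, the 2 largest rises and 2 largest falls past the test, where 1 of the groups averaged 1 CPM or more, are named for each of 5 comparisons, except 1 result that is not reported here. For the 3 members with the widest range of group means, the 3 genes with the highest Pearson r of log2 CPM (prior count 2) are named. Exon lengths and 3′ UTRs are from GENCODE M21, and coordinates are those of the count table.

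Alternatives were DESeq2 1.42.0, its size factors in edgeR, total reads without TMM, filterByExpr, a block by replicate number, a fit of the compared groups alone, the study's call rule, each library left out, and, chosen after seeing the data, 3 libraries left out together. Numbers were taken to pair libraries where every same-numbered correlation of deviations from the group means was over 0.1. This held for Scr with ZIP (0.141 to 0.634), Scr with Scr+Cy (0.413 to 0.626), ZIP with ZIP+Cy (0.261 to 0.397), OE with OE+Cy (0.162 to 0.455) and Scr+Cy with ZIP+Cy (0.191 to 0.370) among the groups compared, and also for ZIP with OE and ZIP with Scr+Cy, which were not compared. The sample titles tie each replicate number to 1 code (P65, P66, P67 or P68) in all 6 groups and do not say what the code means.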

Additional observations from a re-analysis of the deposited data

Results flagged for a closer look

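Differences between cytokine responses passed the test for 4 genes. The response of Wipi1 in OE was lower than that in Scr by −0.91 ± 0.14 (log2, adjusted p = 0.000105), and those of Sqstm1 (0.66 ± 0.15, adjusted p = 0.00318), Gabarapl1 (0.63 ± 0.11, adjusted p = 0.000289) and Ulk1 (0.36 ± 0.10, adjusted p = 0.0144) were higher.

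In 4 of 60 sets of 4 libraries (10 genes in 6 groups), the gap of 1 library to the next took a share of the range of the set above Dixon's 95% critical value, which chance gives in about 1 of 20 sets. Sqstm1 was high in OE replicate 2 (778 CPM), Atg5 was low in ZIP replicate 1 (36.6 CPM), Atg7 was low in Scr+Cy replicate 4 (13.04 CPM) and Atg12 was low in ZIP replicate 1 (38.4 CPM). ZIP replicate 1 was also a library with high fibroblast markers (54.0 CPM in sum, beside 3.35 to 7.95 in the other ZIP libraries), and the part of this in its Atg5 and Atg12 levels was not tested.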

How the results depend on the processing

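No member result changed direction past the test under any alternative. Of 3410 values (10 genes, 11 comparisons, 31 settings), 3307 stayed on their side of the threshold, 55 lost the call and 48 gained one. Under the study's rule (fold change of at least 1.5, unadjusted p under 0.05), fewer members were called: 0 in place of 2 in ZIP against Scr, 1 in place of 7 in OE against Scr, 0 in place of 1 in Scr+Cy against Scr, 2 in place of 4 in ZIP+Cy and 1 in place of 6 in OE+Cy against Scr, 1 in place of 4 in ZIP+Cy against ZIP, 3 in place of 7 in OE+Cy against OE, 0 in place of 3 in ZIP+Cy and 1 in place of 6 in OE+Cy against Scr+Cy. That rule asks for a larger change by its construction. With total reads in place of TMM, 8 in place of 4 members differed in the cytokine response of OE against Scr. In that comparison total reads shifted the log2 fold changes of all genes by a median of 0.09. The part of this shift in the added calls was not tested. With 1 library left out, the counts were 2 to 3 in ZIP against Scr, 7 in OE against Scr, 0 to 1 in Scr+Cy against Scr, 3 to 5 in ZIP+Cy and 4 to 6 in OE+Cy against Scr, 3 to 5 in ZIP+Cy against ZIP, 4 to 7 in OE+Cy against OE, 3 in ZIP+Cy and 5 to 7 in OE+Cy against Scr+Cy, 4 in the response of OE against Scr and 0 in that of ZIP. A fit of the compared groups alone lost 4 member calls and gained 2. Besides Becn1 and Atg5 in OE+Cy against OE, it lost Ulk1 in ZIP+Cy against ZIP (adjusted p = 0.0551) and Atg5 in OE+Cy against Scr (adjusted p = 0.0721). Gabarapl1 was gained in ZIP+Cy against ZIP (adjusted p = 0.0489) and against Scr (adjusted p = 0.0426). The block by replicate number changed the calls given above for ZIP against Scr (3 members) and ZIP+Cy against ZIP (6 members), and changed no other member call. Over all genes it called 45 and DESeq2 41 in the response of ZIP against Scr, in place of 10. Of the 109 results picked from the wider lists, 27 lost the call in some setting, most often Map1lc3a in Scr+Cy against Scr and Rptor in ZIP against Scr (12 of 31 settings each), and none reversed. Of 2790 list counts under these settings, 188 moved by over 1.5 times, or to or from 0. Depth and spread set different limits for different genes: Tfeb, with 131 to 310 reads per library, did not pass at −0.25 in ZIP against Scr, nor Atg7 at −0.15, whereas Becn1 passed at 0.10 in OE+Cy against OE. Changes under total reads moved the median of all genes by at most 0.09.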
